A study of Mus musculus with 4 samples.

Results

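The comparison described here set whole Btaf1-/- mouse embryos, which carry V1330M on both copies of the gene, against wild-type embryos of matched stage. One pool of mutant RNA and one pool of wild-type RNA were labelled with Cy5 and Cy3, hybridised together, and hybridised again with the dyes exchanged. These are 2 of the 4 two-colour whole-genome arrays of the series. They were taken by their labels, which call both of them stage matched; the other pair came from pools that put litter mates first and accepted up to 5 somites of difference, and is called age matched here. Of 41174 probes, 23128 passed the scanning software's own mark for signal clear of background on each array, that is, in both hybridisations of the mutant RNA or in both of the wild-type RNA; such probes are called well above background here. Outlier marks removed 22 of them, and the remaining 23106 probes, of which 21095 had a gene symbol, stood for 13818 genes.

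The allele V1330M exchanges 1 amino acid of BTAF1, at residue 1330, and was induced with the mutagen ENU in C57BL/6J mice. The mice were then crossed with FVB/NJ, and mutant and wild-type embryos alike were hybrids with 50 to 90% FVB/NJ. Embryos with 3 to 5 somites were used where possible, and in these pools the somite count decided which embryos were compared. Each labelling started from 300 ng of RNA. The number of embryos in a pool, their sex and whether yolk sacs were kept are not given in the labels. Both arrays measure the same 2 pools, so they replicate the hybridisation and not the embryos. No test of mutant against wild type is possible on them, and every error below is the SD between the 2 dye orientations. In pools of whole embryos, fewer cells of a type and less RNA per cell cannot be told apart.

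BTAF1 is an ATPase of the SNF2 family. It takes the TATA-binding protein TBP off DNA, so that TBP can be redistributed between promoters that hold a TATA box and promoters that do not. TBP serves all nuclear RNA polymerases, and embryos at this stage are making their first somites, a beating heart tube and blood islands in the yolk sac. The tumour suppressor p53 is a transcription factor that stressed cells stabilise, and its target genes stop the cell cycle, slow growth or start cell death.

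Each value is a log2 ratio, mutant signal over wild-type signal, after background correction and dye normalization, so 1 is a 2-fold higher and -1 a 2-fold lower signal in the mutant pool. On the stage-matched arrays, the mutant channel had 56.16% and 56.82% of 43379 spots well above background and the wild-type channel 57.09% and 59.5%. No spot was saturated (0 on both arrays), and 177 and 157 spots carried an outlier mark. Over all genes the median SD between orientations was 0.143 and the 95th percentile was 0.45. The ratios of the 2 orientations had a Pearson correlation of 0.384 across the 13818 genes, a description only, since the arrays share the RNA and genes are not independent. A ratio kept its sign in 57.21% of genes.

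A gene is counted below when the mean of both orientations is past a fold and the sign is the same on both arrays. At 2-fold, 13 genes were higher in the mutant pool (0.0941% of 13818) and 63 were lower (0.456%). At 1.5-fold, 71 were higher (0.514%) and 308 lower (2.23%). The lower genes thus outnumbered the higher ones, and the higher share of the counted genes was 17.11% at 2-fold and 18.73% at 1.5-fold. With the software's processed signals in place of the mean signals the higher share was 28.29% and 40.91%, from 58 higher and 147 lower genes at 2-fold and 360 and 520 at 1.5-fold. With plain background subtraction 131 genes were higher and 394 lower at 1.5-fold, a higher share of 24.95%, and with the dye-exchanged array alone the counts were 209 and 438, a share of 32.3%. At least 1 array was past 2-fold for 154 genes, of which 5 had opposite signs on the 2 arrays, and 40 of the 154 were past 2-fold on both.

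**Figure D1:**
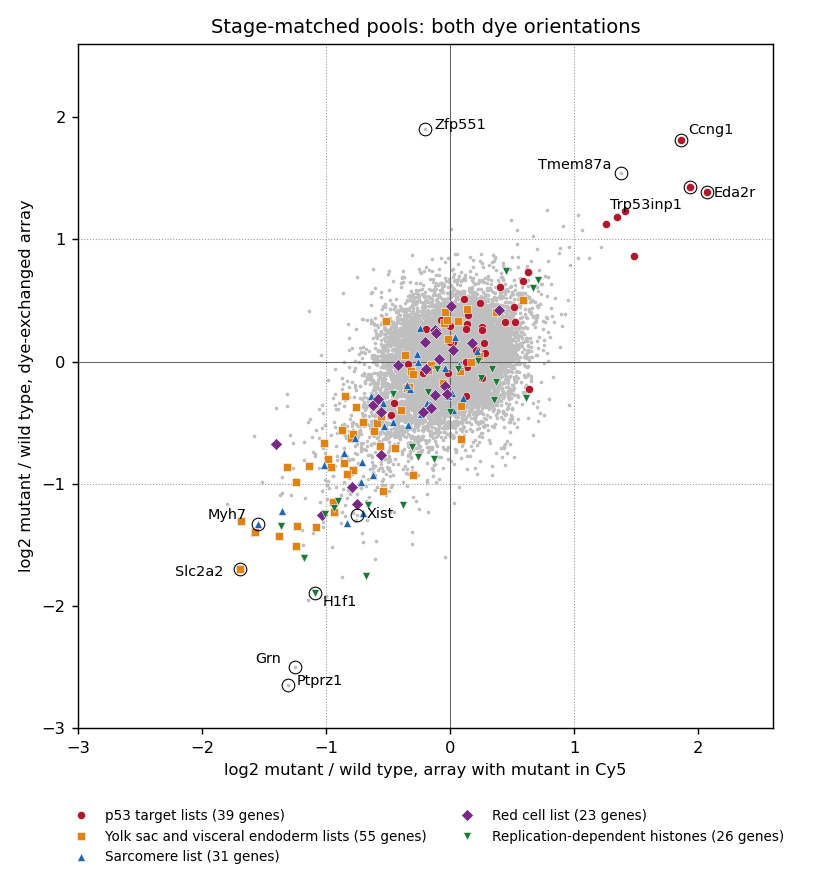
Log2 ratio of mutant over wild type on the array with the mutant in Cy5 (horizontal) and on the dye-exchanged array (vertical), 1 point per gene for 13818 genes, with gene lists in colour and dotted lines at 2-fold. The p53 targets Ccng1, Eda2r and Trp53inp1 lie far out in the upper right, Slc2a2, Myh7 and H1f1 in the lower left, and Zfp551 reads -0.20 on one array and 1.90 on the other.

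Btaf1 itself differed little. Its single tested probe (chromosome 19, 37086826 to 37086885, mm9) read 0.28 with the mutant in Cy5 and -0.12 with the dyes exchanged, a mean of 0.08 ± 0.28. A point mutation leaves the transcript in place, and its level therefore cannot tell which pool was mutant. Among 13 genes that bind or regulate TBP, 0 were past 1.5-fold in either direction, and the median was 0.08. Tbpl1, a relative of TBP, had the highest ratio (0.69 and 0.35, mean 0.52), Gtf2a1, a subunit of TFIIA, the lowest (-0.63 and -0.24, mean -0.43), and Tbp read 0.10. The 16 TFIID subunits also had 0 past 1.5-fold, with ratios from -0.24 for Taf8 to 0.42 for Taf9b. In the 35 tested genes of RNA polymerases I and III and their factors there were again 0. The lowest of them were Twistnb (-0.55), Taf1d (-0.49) and Cd3eap (-0.47), all 3 part of the RNA polymerase I machinery, and each was negative on both arrays. The tested transcripts of the general machinery around BTAF1 stayed within 1.5-fold in this pair of pools. Over all genes 0.514% were higher and 2.23% lower, so counts of 0 do not set lists of this size apart.

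The 3 highest genes of all, Ccng1, Eda2r and Trp53inp1, are targets of p53. Ccng1, cyclin G1, read 1.86 and 1.82 on the 2 arrays, a mean of 1.84 ± 0.03, which is 3.58-fold (chromosome 11, 40562427 to 40562486, mm9). Its signal was 11.74 in the mutant and 9.90 in the wild-type pool on the log2 intensity scale, and a second probe read 1.49. Trp53inp1, a nuclear protein that p53 induces, read 1.93 and 1.43, with a mean of 1.68 ± 0.36 (chromosome 4, 11101174 to 11101233), and a dimmer second probe read 0.50. Cdkn1a, the cyclin-dependent kinase inhibitor p21, read 1.34 and 1.18, a mean of 1.26 ± 0.11 (chromosome 17, 29237377 to 29237436). For these 3 genes the mutant signal was higher in both dyes, by more than 2-fold each time.

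In the list of cell cycle and feedback targets of p53, 5 of 20 tested genes were at least 1.5-fold higher and 0 lower, beside 0.514% and 2.23% of all genes. Its median was 0.23, against 0.01 over all genes, and 17 ratios were positive. The other members past 1.5-fold were Zmat3, an RNA-binding protein, at 0.68 and Plk2, a kinase of the polo family, at 0.62. Below that fold came Mdm2, the ubiquitin ligase that removes p53, at 0.42 (0.52 and 0.32), Btg2, an inhibitor of proliferation, at 0.38, and Sesn2, a sestrin, at 0.31. The lowest were Fbxw7, a subunit of a ubiquitin ligase, at -0.40 and Cd82, a tetraspanin, at -0.18. Within this list the sizes ranged widely, and 3 genes lay above 2-fold while 12 lay within 0.31 of 0.

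Targets of p53 that promote death or slow growth gave 4 of 19 at least 1.5-fold higher and 0 lower. Eda2r, a receptor of the TNF family, read 2.07 and 1.39, a mean of 1.73 ± 0.48 (chromosome X, 94529458 to 94529517). Pmaip1, the BH3-only protein NOXA, read 1.41 and 1.24, a mean of 1.32 ± 0.12. Phlda3, which restrains AKT, read 1.25 and 1.12, a mean of 1.19 ± 0.09 (chromosome 1, 137665642 to 137665701), and Ddit4l, which restrains mTOR, read 1.48 and 0.87, a mean of 1.17 ± 0.43. All 4 were higher on both arrays, which the counting rule requires, and all 4 were also at least 2-fold higher by their mean. Other probes of Ddit4l read 1.34 and 1.14 and the other probe of Eda2r read 0.71. Of the remaining members, Sulf2, a sulfatase, read 0.51, Bbc3, the BH3-only protein PUMA, 0.48 and Bax, which permeabilises mitochondria, 0.36. Trp53, the gene of p53 itself, read -0.48 and -0.44, the lowest of this list, and Ddit4, a relative of Ddit4l, -0.28. The lists were drawn up with earlier results of these data known, so their direction is a description. The general BCL2 and caspase list had 0 of 21 past 1.5-fold and a median of -0.02.

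The promoter of Cdkn1a is shown because, of the genes at least 1.5-fold higher with a promoter in the table, it was the 1 that held a pair of p53 half-sites. Promoters are RefSeq's for GRCm38.p6, from 250 bases before the start site to 50 after it. A pair was searched as 2 copies of the 10-base p53 half-site consensus with 0 to 13 bases between them, a pattern that reads the same on both strands. It was found in 1 of 50 higher genes, in 6 of 10701 tested genes (0.056%) and in 0.073% of all 32851 promoters of the table. The capitals mark the pair, which begins at position -73 from the start site, in the window chr17:29090729-29091028, plus strand.
Cdkn1a: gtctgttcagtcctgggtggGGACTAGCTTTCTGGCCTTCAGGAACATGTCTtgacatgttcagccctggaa
The match describes these letters and does not show binding.

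Of the 13 genes at least 2-fold higher, 7 were in the p53 lists. The other 6 were Tmem87a, a membrane protein, Slc19a2, a thiamine transporter, 4930447C04Rik, Neto2, an auxiliary subunit of kainate receptors, Rbm45, an RNA-binding protein, and Gchfr, the feedback regulator of GTP cyclohydrolase. Tmem87a read 1.38 and 1.54, a mean of 1.46 ± 0.12, and Slc19a2 read 1.03 and 1.20, a mean of 1.11 ± 0.12. Neto2 read 1.06 and 1.08, with 0.75 at its other probe, and 4930447C04Rik read 1.22 and 0.94, with 0.27 at its other tested probe. The lowest of the 13 were Rbm45 at 0.78 and 1.25 and Gchfr at 0.91 and 1.11, both with a mean of 1.01, and the first gene outside 2-fold was Pop4, a subunit of RNase P, at 0.98. All 13 were higher in both orientations, which the counting rule requires. On the age-matched arrays, given for comparison of values alone, Slc19a2 read 1.31 and 1.41, Tmem87a 0.96 and 0.70, and Rbm45 0.08 and -0.02. The median of the 13 was 1.19 here and 1.36 in the age-matched pools.

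**Figure D2:**
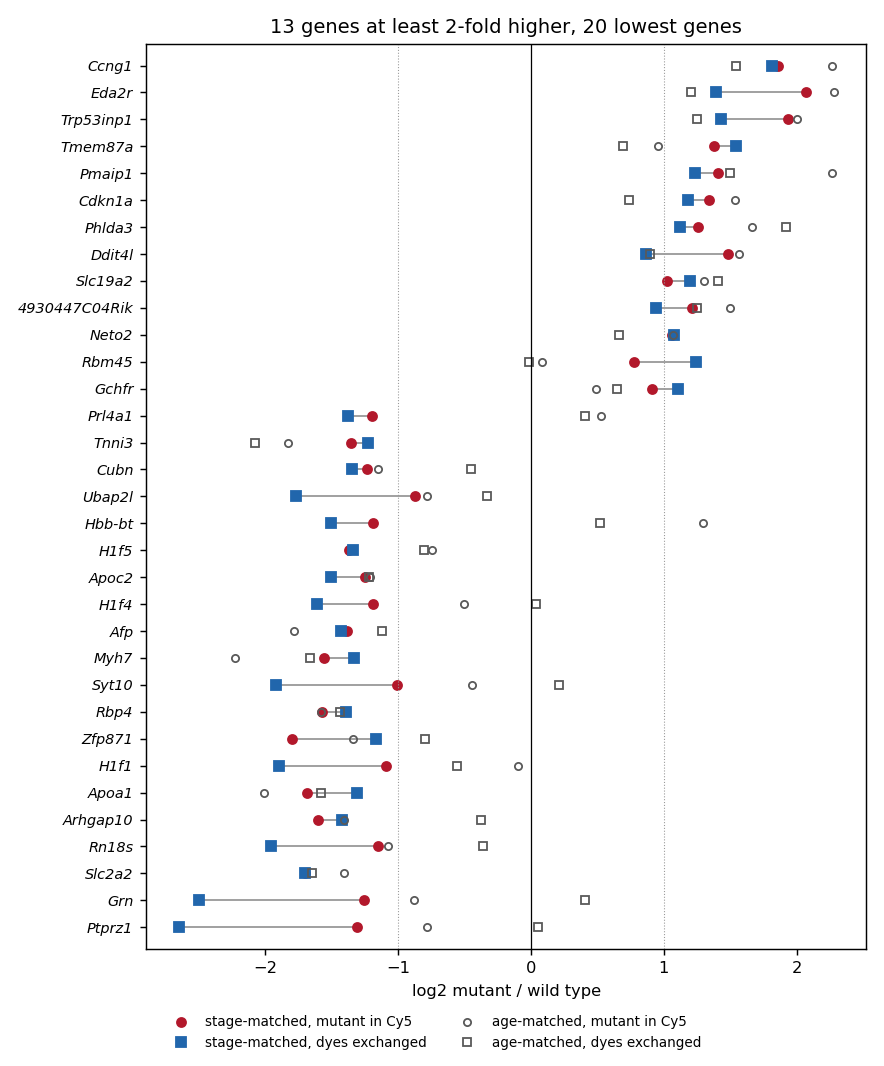
Log2 ratio of mutant over wild type for the 13 genes at least 2-fold higher and the 20 lowest genes; filled symbols are the 2 stage-matched arrays joined by a line, open symbols the age-matched arrays, and dotted lines mark 2-fold. Rbm45 is near 0 in the age-matched pools, Hbb-bt and Prl4a1 lie on the other side of 0 there, and Ptprz1 and Grn have the widest gaps between dye orientations.

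Several genes of the mouse MHC region, H2, were among the higher ones. This family was taken up after its values were seen. Of 20 tested H2 genes, 4 were at least 1.5-fold higher and 3 lower, beside 0.514% and 2.23% of all genes, and the median was 0.30. Among the 3 lower genes, H2-Q1 was well above background in the wild-type pool alone. It read -0.56 and -0.68, a mean of 1.54-fold lower against its own mutant signal. The highest was H2-Bl at 0.96 and 0.94, followed by H2-T-ps at 0.68, H2-Q2 at 0.64 and H2-K2 at 0.59, and the lowest was H2-Ab1, a class II chain, at -0.68 and -1.01. The family thus held members on both sides of 0. MHC class I genes are close copies of each other, their alleles differ between C57BL/6J and FVB/NJ, and the signal of one probe may include a neighbour. The part of strain in these values was not tested.

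Of the lists described here, the yolk sac list held the most lower genes. Visceral endoderm, the outer cell layer of the yolk sac, secretes apolipoproteins and serum carriers to the embryo before the liver forms. Of 27 tested genes for such proteins, 17 were at least 1.5-fold lower (62.96%, beside 2.23% of all genes) and 0 higher. The median was -0.63. Apoa1, the main protein of HDL, read -1.69 and -1.31, a mean of -1.50 ± 0.27 (chromosome 9, 46037921 to 46037980). Rbp4, the retinol carrier of blood, read -1.57 and -1.39, a mean of -1.48 ± 0.13, and Afp, alpha-fetoprotein, read -1.38 and -1.43, a mean of -1.41 ± 0.03. Afp is among the markers that define this tissue, and its log2 signal was 13.10 in the mutant and 14.50 in the wild-type pool, so it was far above background in both.

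The apolipoproteins differed among themselves. Apoc2, the activator of lipoprotein lipase, read -1.38, Apoa2 -1.22, Apom -0.89, Apoc1 -0.80, Apoa4 -0.71, Apoe -0.59 and Apob -0.55, each negative on both arrays. Mttp, which loads lipid onto APOB, read -0.27 and Apoc3 -0.09. Among clotting factors, the fibrinogen chain Fgg read -1.09 and Fgb -0.61, prothrombin F2 -0.99 and factor X, F10, -0.60. The carriers Trf (transferrin) and Ttr (transthyretin) read -0.85 and -0.56. Only 3 tested members were positive, Serpina1d at 0.55 and, near 0, Hpx at 0.14 and Ahsg at 0.13, and 6 members with a probe, Alb among them, were not tested because they were not well above background. The age-matched median of the list was -0.70, with Rbp4 at -1.57 and -1.44.

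Receptors and transporters of the visceral endoderm gave 9 of 28 at least 1.5-fold lower (32.14%, beside 2.23% of all genes) and 0 higher. The median was -0.24. Slc2a2, the glucose transporter GLUT2, had the lowest ratio of this list, -1.70 on each array (chromosome 3, 28627016 to 28627075), with -0.66 at its other probe. Cubn, cubilin, the receptor through which this layer takes up protein from maternal fluids, read -1.24 and -1.35, and its partner Amn, amnionless, read -1.25 and -0.98. Dab2, the adaptor of this uptake system, read -0.28 and Lrp2, megalin, the large receptor beside cubilin, -0.19. Others past 1.5-fold included Lgals2 (-1.08), Pdzk1 (-1.05), Vil1, the villin of microvilli (-0.91), and Tdh, threonine dehydrogenase (-0.88). The epithelial adhesion genes Epcam, Cldn6 and Cdh1 had means of 0.28, 0.18 and 0.16, with Cldn6 and Cdh1 differing in sign between the arrays. The count of lower members was 14 with the software's processed signals.

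Transcription factors of the endoderm were mostly near 0. Of 17 tested, Hnf4a, which drives apolipoprotein genes, was the 1 at least 1.5-fold lower (-0.70 and -0.53, mean -0.61), and 0 were higher. A second Hnf4a probe of similar brightness read 0.01, so this call rests on 1 probe. Gata4 read -0.14, Gata6 -0.11, Sox17 0.08 and Foxa2 0.03, and the median of the list was -0.02. The median of the secreted proteins, -0.63, was thus further from 0 than that of the factors, but no test of this difference was possible. Pyy, a gut hormone that early endoderm also expresses, read -1.36 and -0.94. Whether yolk sacs were in the pools is not given in the labels, so a different share of yolk sac tissue between pools and less transcript per cell cannot be told apart.

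Genes of primitive red cells were lower at the globins. Primitive red cells arise in the blood islands of the yolk sac and first make embryonic globins. Hbb-bh1, an embryonic beta-like globin, read -1.04 and -1.25, a mean of -1.15 ± 0.15 (chromosome 7, 110990327 to 110990386), and -1.22 at its other probe. Hba-x, the embryonic zeta globin, read -1.41 and -0.67, a mean of -1.04 ± 0.52, while Hbb-y, the other embryonic beta-like globin, read -0.22 and -0.42. The globins Hba-a1 and Hba-a2, whose transcripts are nearly identical, read -0.96 and -0.91. In the list, 5 of 23 tested genes were at least 1.5-fold lower (21.74%, beside 2.23% of all genes) and 0 higher, with a median of -0.20. The fifth besides Hbb-bh1, Hba-x, Hba-a1 and Hba-a2 was Aqp8, a water channel, at -0.66. Klf1, the erythroid factor that activates beta globin genes, was well above background in the wild-type pool alone. It read -0.58 and -0.31, with a bound of 1.35-fold on the mean of both arrays. Tal1 read -0.13, Lmo2 0.06, and the heme enzymes ranged from -0.49 for Alad to 0.41 for Ppox. Gata1 and 6 other listed genes with a probe were not tested, since they were not well above background.

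Hbb-bt, an adult-type beta globin, differed from the rest. It read -1.19 and -1.50 here, a mean of -1.34 ± 0.22, and its other 3 probes read -0.35, -1.18 and -1.19. On the age-matched arrays it read 1.30 and 0.52, whereas Hbb-bh1 read -1.75 and -2.53 and Hba-x -2.27 and -1.92. The adult and embryonic beta globins are similar in sequence, so part of a signal may come from a neighbour. Hba-a1 and Hba-a2, also adult-type, had age-matched means of -0.32 and -0.30, but their signs differed between those arrays. Hba-a1 read 0.18 and -0.82 there, and Hba-a2 0.08 and -0.68. Prl8a2 and Prl4a1, prolactin-like hormones of decidua and placenta, read -0.94 and -0.93 and -1.20 and -1.38 here and were positive on both age-matched arrays (0.77 and 0.25, and 0.53 and 0.41). Of 7 tested prolactin family genes, a group formed after its values were seen, 6 were negative here, with a median of -0.39 beside 0.49 in the age-matched pools. In the list of maternal decidua and adult blood, 2 of 10 tested were at least 1.5-fold lower, beside 2.23% of all genes. The 2 were Hba-a1 and Prl8a2. Both are counted in other groups as well, Hba-a1 in the red cell list and Prl8a2 in the prolactin family. The median was -0.17, beside -0.04 in the age-matched pools, and the ratios ranged from -0.96 for Hba-a1 to 0.14. The defining blood and decidua genes Ptprc, Pgr, Igkc, S100a8 and S100a9 were not well above background. Trophoblast genes had a median of -0.21 over 17, beside 0.01 in the age-matched pools. Of the 17, 1 was lower (5.88%, beside 2.23% of all genes) and 0 higher. The part of maternal or trophoblast tissue in the globin values was not tested.

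Genes of the contractile apparatus of the heart were lower. Of 31 tested sarcomere genes, 10 were at least 1.5-fold lower (32.26%, beside 2.23% of all genes) and 0 higher. The median was -0.33, with 27 negative ratios. Myh7, the beta myosin heavy chain, read -1.55 and -1.33, a mean of -1.44 ± 0.16 (chromosome 14, 55589526 to 55589585), with -1.41 at its other probe. Tnni3, cardiac troponin I, read -1.35 and -1.22, with -1.06 at its other probe, and Myl2, the ventricular light chain, read -0.83 and -1.32. The actins Acta1 and Actc1 read -0.97 and -0.94, Myh6, the alpha heavy chain, -0.81, and Myl7, the atrial light chain, -0.43. Titin (Ttn) and desmin (Des) read -0.15 and 0.02.

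Chamber and calcium genes gave 5 of 24 lower (20.83%) and 1 higher (4.17%), beside 2.23% and 0.514% of all genes. Gja5, connexin 40, read -1.37 and -1.09 (chromosome 3, 96857349 to 96857408). The other tested probe under its name read 0.05 but lies elsewhere on the chromosome, at 98214966 to 98215025. Nppa, atrial natriuretic peptide, read -0.72 and -1.03. Gja1, connexin 43, was the 1 that was higher, at 0.43 and 0.80. Of 26 heart transcription factors, 2 were at least 1.5-fold lower (7.69%, beside 2.23% of all genes) and 0 higher, with a median of -0.11. The 2 were Myocd (myocardin, -0.95, with -0.36 at its other probe) and Mef2c (-0.68). Tbx5 read -0.44, Nkx2-5 -0.21, Hand2 -0.11, Mesp1 0.18 and Isl1, a factor of progenitors, 0.30. The values were further from 0 in the age-matched pools for the sarcomere list, whose median there was -1.04, with Myh7 at -2.22 and -1.66 and Nppa at -2.11 and -2.16. The difference between the pairs of pools was not tested, because each pair is a single comparison.

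Endothelial genes had 2 of 30 lower (6.67%, beside 2.23% of all genes), with 24 negative ratios and a median of -0.16. The 2 were Gja5, which chamber muscle also expresses, and Kdr, a VEGF receptor, at -0.55 and -0.87. Gja4 read -0.58 and Etv2, the factor that starts the lineage, -0.42, whereas Pecam1 (-0.15), Tek (-0.12) and Cdh5 (-0.04) lay near 0.

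**Figure D3:**
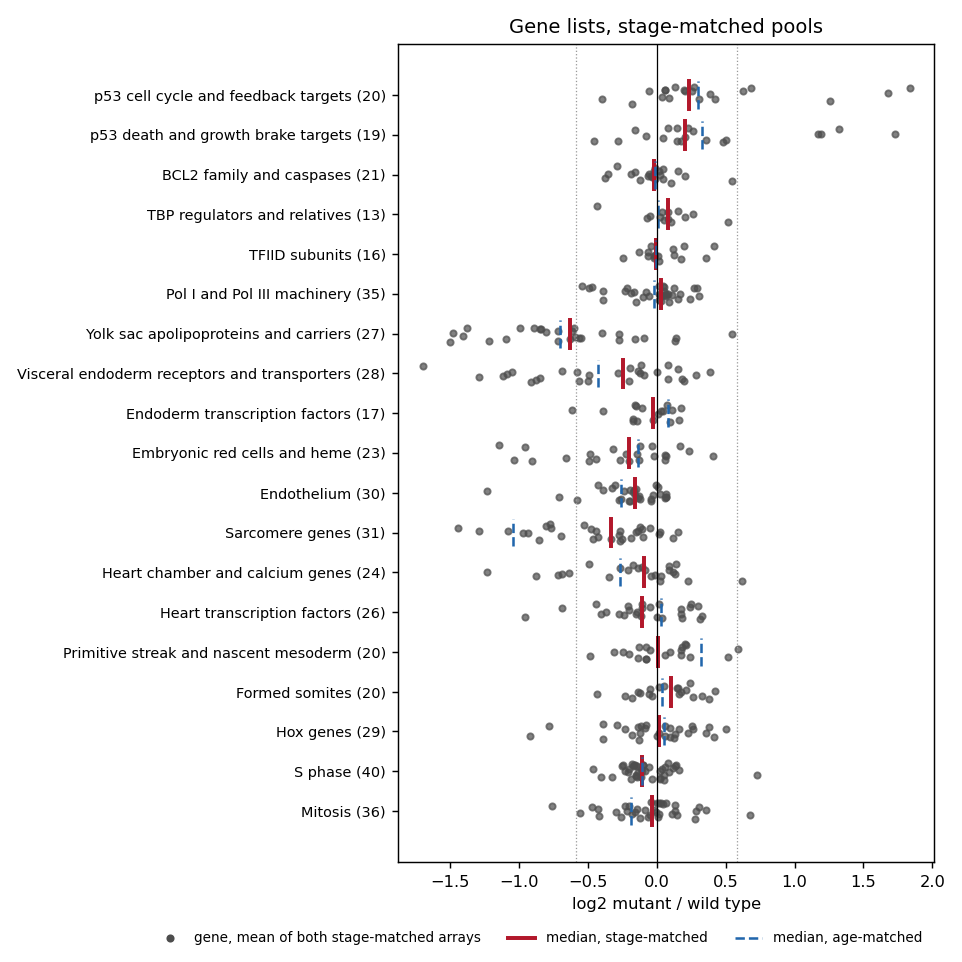
Mean log2 ratio of mutant over wild type in the stage-matched pools, 1 point per tested gene, for 19 gene lists with their number of genes; red bars are list medians, dashed blue bars the medians in the age-matched pools, and dotted lines mark 1.5-fold. The yolk sac list lies furthest below 0 with a median of -0.63, 9 p53 targets lie beyond 1.5-fold on the right, and the TBP, TFIID and polymerase lists stay within it.

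Histone genes were the other large group among the lower genes. Replication-dependent histone genes are transcribed in S phase, and their messages end in a stem-loop in place of a poly(A) tail. The family was taken up after its values were seen. Of 26 tested, 9 were at least 1.5-fold lower and 3 higher, beside 2.23% and 0.514% of all genes. Among the 63 genes at least 2-fold lower, 7 were of this family. Linker histone H1 genes, counted with H1f0 and H1f10 from outside these 26, were the most uniform in sign at their brightest probes. Of 7 tested, 7 were negative and 5 past 1.5-fold, with a median of -1.07. Among the 5, H1f10 read -0.31 and -1.49, with -0.02 at its other probe. H1f1 read -1.09 and -1.89, a mean of -1.49 ± 0.57 (chromosome 13, 23855888 to 23855947), H1f4 -1.18 and -1.61, and H1f5 -1.37 and -1.34.

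H1f3 read -0.94 and -1.20, while H1f2 read -0.005 and -0.41, a mean of -0.21. H1f0, which is made outside S phase, read -0.15, with 0.12 at its other tested probe. Of 5 H4 genes, 4 were lower, led by H4c6 at -1.01 and -1.25. H2A genes were split, with H2ac4 at -0.68 and -1.75 against H2ac13 at 0.71 and 0.67, H2ac15 at 0.63 and H2ac18 at 0.59, and the 3 H3 genes lay between -0.22 and 0.14. Copies within the H2A, H2B, H3 and H4 families are nearly identical, so a probe may read several. The second H1f4 probe, at a log2 mean signal of 6.88 against 11.78, read 0.14. Of 40 S phase genes of the replication machinery, 0 were lower and 1 higher (Prim2, a primase subunit, at 0.73), beside 2.23% and 0.514% of all genes. In a list of this size 0 lower is near the share over all genes. The median was -0.11, with 26 negative ratios. In the age-matched pools the H1 median was -0.23.

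Other RNAs without a poly(A) tail moved with the histones in part. Rn18s, the 18S ribosomal RNA, read -1.15 and -1.95 and Rmrp, the RNA of RNase MRP, -0.31 and -1.40, whereas Rn28s1, a 28S ribosomal RNA, read 0.38 and -0.40. In all, 2 of 7 such structural and small RNAs were at least 1.5-fold lower, beside 2.23% of all genes, with a median of -0.17. Their part in the histone values was not tested. The dye-exchanged array gave the lower ratio for H1f1, Rn18s and Rmrp, and the H1 median was -0.94 with the mutant in Cy5 and -1.34 with the dyes exchanged.

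Since BTAF1 acts on TBP, promoters were searched for the letters TATAAA in the 50 bases before the start site, on the sense strand. They were found in 253 of 10701 tested genes with a promoter in the RefSeq table (2.36%) and in 2.63% of all 32851 promoters. Among genes at least 2-fold lower it was 11 of 51 (21.6%), and among those at least 1.5-fold lower 17 of 228 (7.46%). Among genes at least 1.5-fold higher it was 2 of 50 (4.0%), and among those at least 2-fold higher 0 of 11. Histone promoters made up 6 of the 11. Without histones, 5 of 44 genes at least 2-fold lower (11.4%) and 11 of 220 at least 1.5-fold lower (5.0%) held the letters, beside 2.29% of all tested genes without histones. Counted on either strand, the shares were 3.0% of tested genes, 21.6% of the genes 2-fold lower and 8.33% of those 1.5-fold lower. These shares rest on few genes and were not tested.

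The 8 promoters below are those of 4 linker histones and of 4 yolk sac and red cell genes at least 2-fold lower. They are shown from 27 bases before the letters to the base before the start site (RefSeq, GRCm38.p6), and the capitals mark TATAAA.
H1f1: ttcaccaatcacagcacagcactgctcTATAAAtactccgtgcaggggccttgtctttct
H1f3: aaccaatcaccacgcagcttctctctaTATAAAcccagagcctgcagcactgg
H1f4: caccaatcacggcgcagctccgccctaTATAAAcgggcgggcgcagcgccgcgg
H1f5: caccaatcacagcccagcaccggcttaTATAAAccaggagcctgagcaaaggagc
Rbp4: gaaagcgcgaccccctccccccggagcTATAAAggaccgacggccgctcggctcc
Hba-x: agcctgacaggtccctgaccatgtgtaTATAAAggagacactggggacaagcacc
Hbb-bt: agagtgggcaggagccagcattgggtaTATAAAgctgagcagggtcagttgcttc
Afp: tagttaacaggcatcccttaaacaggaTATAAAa
Their 300-base windows are chr13:23763418-23763717 for H1f1 and chr13:23554782-23555081 for H1f3, both plus strand, chr13:23622509-23622808 for H1f4 and chr13:21780576-21780875 for H1f5, both minus strand, chr19:38124762-38125061 for Rbp4, minus strand, chr11:32276350-32276649 for Hba-x, plus strand, chr7:103813874-103814173 for Hbb-bt, minus strand, and chr5:90490464-90490763 for Afp, plus strand. In 7 of the 8 the letters begin 26 to 33 bases before the start site; in Afp they begin 7 bases before it. A match is not a site of TBP binding, and promoters of other strongly lower genes, such as Apoa1, Slc2a2 and Myh7, did not hold these letters in this window.

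Some genes of chromatin remodelling complexes were also lower at some probes. CHD and SMARCA proteins are ATPases with an SNF2-type domain, as BTAF1 is, whereas BAZ proteins are partner subunits of such ATPases. These genes were grouped after their values were seen. Of 17 tested, 6 were at least 1.5-fold lower, beside 2.23% of all genes, and 0 higher. The median was -0.21, and 3 of the 6 were BAZ genes. Chd4, the ATPase of the NuRD complex, read -1.03 and -1.06, and Smarca4, the BRG1 ATPase of the BAF complex, read -0.99 and -0.98. Baz2a read -1.52 and -0.99, Baz1b -1.02 and -1.36 and Baz1a -1.58 and -0.61. Their other probes differed from these values: those of Baz1a read 0.19 and -0.73, that of Baz1b -0.09, those of Baz2a -1.02, -0.83 and 0.07, those of Chd4 -1.24 and -0.14, and those of Smarca4 -0.19 and -0.70, the first as bright as the probe above and of opposite signs on the 2 arrays. A gene is represented by its brightest tested probe, so the sign and size for this family depend on which probe is read.

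The same held for the lower genes as a whole. Of the 63 genes at least 2-fold lower, 30 had another tested probe; for 19 of these all other probes were negative too, and for 3 they were also 2-fold lower. Of the 13 higher genes, 6 had another tested probe, all 6 with the same sign, and 2 of them also 2-fold higher. The lowest gene of all was Ptprz1, a receptor phosphatase of neural cells, at -1.31 and -2.65, a mean of -1.98 ± 0.95, where the log2 signal of 16.04 in the mutant and 18.02 in the wild-type pool was very bright. Its other 2 probes read -0.11 and 0.06, and its age-matched values were -0.78 and 0.06. Grn, progranulin, read -1.25 and -2.50 with -0.05 at its other probe, and -0.88 and 0.41 on the age-matched arrays. Ubap2l read -1.32 at the brightest probe and between 0.00 and 0.20 at the other 4. Its brightest probe read -0.78 and -0.33 on the age-matched arrays. For these 3 genes, 1 probe alone was past 1.5-fold. Ccnd2, cyclin D2, read -0.85 and -1.17, with -0.44 and -0.50 at its other probes.

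Lists for regional patterning stayed near 0 by their medians. The primitive streak list had 0 of 20 lower and 1 higher, Nodal, a signal of the streak and the left side, at 0.69 and 0.49, and the median was 0.01. T, brachyury, read 0.26 and -0.07, Mesp1 0.19 and 0.18, and Tbx6 0.26 and 0.78. In the age-matched pools the median of this list was 0.32, with Nodal at 1.43 and 0.93. In the epiblast list of 17, Fgf5, a growth factor, was higher, at 0.73 and 0.63, and Tdh, which is also in the visceral endoderm list, was lower, at -0.88. Lefty1 read 0.51. The 20 genes of formed somites had 0 past 1.5-fold either way and a median of 0.10, with Tcf15 at 0.16, Meox1 at 0.38 and Uncx at -0.14. Of 29 Hox genes, 2 were lower (6.9%, beside 2.23% of all genes) and 0 higher. The 2 were the posterior genes Hoxb9 (-1.10 and -0.74, with -0.20 at its other probe) and Hoxa11 (-0.96 and -0.60). In the midbrain and hindbrain list Dbx1 (-0.84) was lower, 5.26% of its tested genes. In the neural crest list Prrx1 (-0.75) and Sox10 (-0.69) were lower, 8.33% of its tested genes. The labels give whole embryos, and T, Tcf15, Nkx2-5, Sox2 and Pax6 were well above background in both pools. So were 18 of 23 formed somite genes with a probe and 17 of 25 forebrain genes. The same held for 16 of 21 trophoblast genes and 9 of 15 genes of maternal decidua and adult blood. Detection therefore does not show which tissues the pools held.

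The mitosis, hypoxia and glycolysis, integrated stress and heat shock lists had medians from -0.13 to -0.03, beside 0.01 over all genes. Of 36 mitosis genes, Cenpa, the centromeric histone, was lower (-0.76) and Nusap1 higher (0.67), with a median of -0.03. Of 36 hypoxia and glycolysis genes, Pfkp was lower (-0.94, with -0.25 and 0.02 at its other probes), with a median of -0.12. Of 38 genes of the integrated stress and unfolded protein response, 2 were lower (5.26%, beside 2.23% of all genes), with a median of -0.10. They were Vldlr (-0.66) and Dnajc3 (-0.65, with -0.39 to 0.04 at its other probes). Heat shock genes had 0 of 20 past 1.5-fold. Targets of FGF, Wnt, BMP and Hedgehog signalling had 0 past 1.5-fold in 15, 19, 17 and 16 tested genes, with medians from -0.07 to 0.00. Imprinted genes were further from the whole, with 22 negative ratios of 26 and a median of -0.22. Of these genes, 3 were lower (11.54%, beside 2.23% of all genes). Peg3 read -0.74, with -0.03 at its other tested probe, and Cdkn1c -0.64. Peg10 was well above background in the wild-type pool alone. It read -0.29 and -0.91, a mean of 1.51-fold lower against its own mutant signal. Retinoic acid genes held 1 lower member of 17 (5.88%), the synthesis enzyme Aldh1a3 (-1.18 and -0.81). Aldh1a3 was well above background in the wild-type pool alone. Its mean difference was 1.99-fold against its own mutant signal, the largest among genes above background in 1 pool alone.

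Sex-linked genes had opposite signs in the 2 pairs of pools. Xist, which is made from the inactive X chromosome of females, read -0.75 and -1.25 here (chromosome X, 100658920 to 100658979) and 0.53 and 1.02 in the age-matched pools. Its other probes read -1.0, -0.73 and -0.09 here. Of the Y-linked genes, Ddx3y read 0.58 and 0.24 here and -0.38 and -1.32 there, and Eif2s3y 0.43 and 0.23 here and -0.67 and -0.95 there. Zfy1 read 0.05 and -0.03, and Kdm5d -0.06 and 0.27. Xist was thus lower and Ddx3y and Eif2s3y higher in the stage-matched mutant pool, with the opposite signs in the other pair. The part of the sex ratio of the pools in other differences was not tested.

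**Figure D4:**
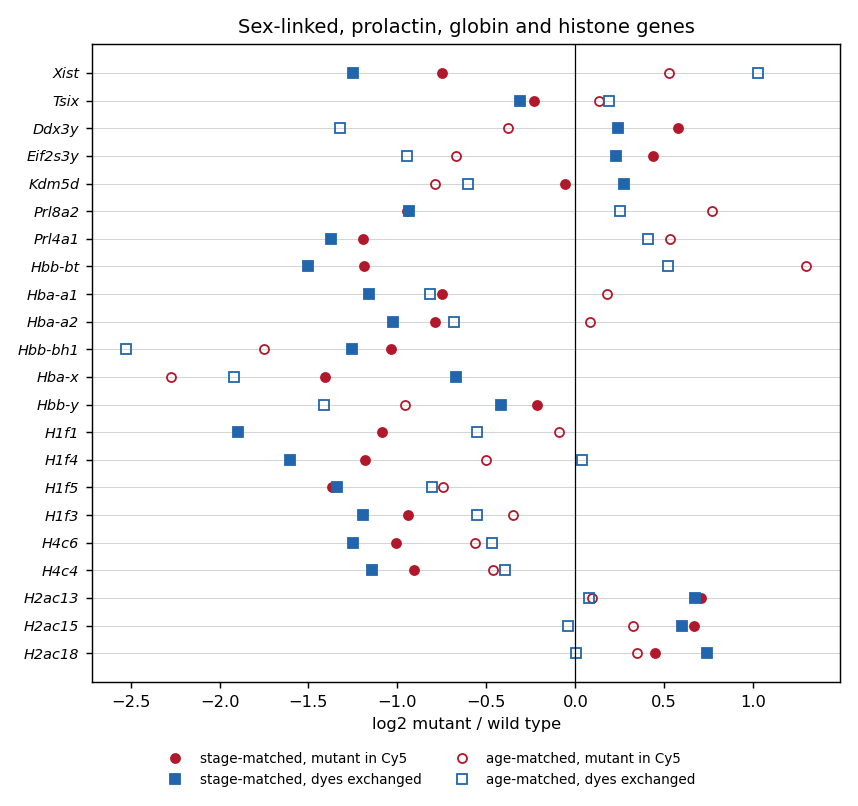
Log2 ratio of mutant over wild type on each of the 4 arrays for sex-linked, prolactin family, globin and histone genes; filled symbols are stage-matched and open symbols age-matched arrays, circles with the mutant in Cy5 and squares with the dyes exchanged. Xist, Prl8a2, Prl4a1 and Hbb-bt lie below 0 in the stage-matched and above 0 in the age-matched pools, while Hbb-bh1 and Hba-x lie below 0 on all 4 arrays.

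Genes near Btaf1 were counted apart, because the allele arose on C57BL/6J and the mice were crossed with FVB/NJ, so the strain of this region and the Btaf1 genotype cannot be told apart. Of 237 genes within 20 Mb of Btaf1 on chromosome 19, 2 were at least 1.5-fold higher (0.844%) and 5 lower (2.11%), beside 0.511% and 2.23% of 13305 genes on other chromosomes. The 7 genes were Foxd4 (0.66) and 2700046G09Rik (0.73), higher, and Vldlr (-0.66), Mbl2, a mannose-binding lectin (-1.0), Sgms1 (-0.84), Rbp4 (-1.48) and Gbf1 (-0.97), lower. Rbp4 lies 1.1 Mb from Btaf1, so its place in the yolk sac group comes with this linkage. Within 20 Mb the share of lower genes was close to that on other chromosomes. Within 10 Mb, 5 of 167 genes were lower (2.99%) and 1 higher (0.599%). On chromosome 19 farther than 20 Mb, 2 of 260 were lower (0.769%) and 1 higher (0.385%). These counts are small and the differences were not tested.

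The size of a difference depended on which signals were read. For some dim probes, mean signals after the main background correction (normexp, which here adds an offset of 50) gave smaller ratios than the software's processed signals. Eda2r read 1.73 from the mean signals so corrected and 2.74 from the processed ones, Tmem87a 1.46 and 2.55, and Prl8a2 -0.94 and -1.70. Mean signals with plain background subtraction lay between, with Eda2r at 2.11, Tmem87a at 1.87 and Prl8a2 at -1.22. The part of the offset in these gaps was not tested. Bright probes differed little, with Ccng1 at 1.84 and 1.96, Rbp4 at -1.48 and -1.51 and Myh7 at -1.44 and -1.40. For Eda2r, Tmem87a and Prl8a2 the sizes printed in earlier paragraphs are thus the smallest of these readings. A few genes had no settled direction: Zfp551 read -0.20 and 1.90, Zfp617 -1.14 and 0.42, Sltm 0.07 and -1.03, and AY036118 0.03 and -1.16 on the 2 arrays.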

How the data were processed

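RNA from 1 mutant and 1 wild-type pool was measured on 2 dye-exchanged Agilent arrays. The deposited files list, for each spot and dye, a raw mean intensity and a median intensity of the local background. They also list a processed intensity, from which the software had subtracted background and corrected the dye bias, per the file headers. The authors' deposited table holds log10 ratios of mutant over wild type with a median of 0 on each array, and differed from the scanner's log10 ratios by at most 5e-06 once signs were turned. The submitters' processing notes name Feature Extraction 9.5.3; the file headers give 10.5.1.1.

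From the mean and background intensity, log2 ratios were computed with limma 3.58.1 (R 4.3.3): normexp background (offset 50), loess within each array with control and marked spots at weight 0, the sign turned on the dye-exchanged array, spots of a probe averaged, and the brightest tested probe per gene. Log2 levels per dye were scaled between arrays on their average intensity (Aquantile). Names came from the RefSeq gene table by accession (25089 probes, and 166 by another accession), by symbol (6239) or by synonym (1602); for 1434 the symbol in the file was used, and 6644 were left unnamed. Coordinates of probes are on mm9 (NCBI37), as in the files. Exons and UTRs are not given.

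With 1 pair of pools no p-value was computed: genes were counted past 1.5-fold and 2-fold with 1 sign on both arrays, and 43 gene lists were described by counts and medians. The members and lists were chosen with earlier results of these data known, and 11 families by symbol were added after the values were seen. Named were the 15 largest ratios in each direction, marker genes of the lists, up to 4 members per list past 1.5-fold, the 5 largest bounds in each direction, 4 genes with discordant dyes, and further members for contrast, chosen after their values were seen. Bounds set the mean of the bright pool against the lowest signal marked as well above background, or the probe's own signal if higher, per array. A bound is a mean over both arrays. Where the probe's own signal was used on both, it equals the measured mean ratio. The steps were tested on simulated data. In all, 11 alternatives were tried, among them plain subtraction, median centring, processed signals, other filters and each array alone. Some genes are not reported here.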

Additional observations from a re-analysis of the deposited data

Results flagged for a closer look

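For the following genes both stage-matched arrays had one sign and both age-matched arrays the other. The difference between the pairs of pools was not tested. Xist read -1.0 in the stage-matched and 0.77 in the age-matched pools, and the median of Xist and Tsix was -0.64 and 0.47. Ddx3y read 0.41 and -0.85, Eif2s3y 0.33 and -0.81, and the median of the 4 tested Y-linked genes was 0.22 and -0.75. The adult-type globin Hbb-bt read -1.34 and 0.91. The prolactin family genes Prl4a1 and Prl8a2 read -1.28 and 0.47, and -0.94 and 0.51.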

How the results depend on the processing

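The values below come from 11 alternatives, each changing the main processing at one step or at the named pair of steps. Of 139 named genes, 0 past 1.5-fold changed sign under any alternative that gave them a value. With 1 array alone this was fixed in advance, because a counted gene has 1 sign on both arrays. The alternatives that changed only which probes or spots were kept reused mostly the same ratios. Genes at least 2-fold higher numbered 13, with 8 without background correction and 58 with processed signals; all 13 and all 63 lower ones were among those counted with processed signals. Genes at least 2-fold lower numbered 63, with 147 with processed signals, 40 with the median of a gene's probes, and 69 to 96 with 1 array alone. Genes at least 1.5-fold higher numbered 71, with 131 by plain subtraction, 125 by plain subtraction with median centring, 42 without background correction, 360 with processed signals and 165 to 209 with 1 array alone. Genes at least 1.5-fold lower numbered 308, with 520 with processed signals. Lower members of the visceral endoderm receptor list numbered 9, with 14 with processed signals. The cause of these shifts was not tested. No paired analysis was possible because the result comes from no test and the 2 arrays measure the same pair of pools. For 116 genes above background in 1 genotype alone, the difference is a bound on the mean of both arrays. Where the probe's own signal was used, it is the measured mean.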
